A study of Hapsidospora chrysogena with 9 samples.

Results

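In Hapsidospora chrysogena, the fungus also known as Acremonium chrysogenum that makes the antibiotic cephalosporin C, 58 of 8899 genes had more transcript late in culture in 3 strains whose average levels were close. The strains were the wild type, ∆AcmybA, which lacks the Myb transcription factor gene AcmybA, and AcmybAOE, which overexpresses it. Mycelium of each was taken from LPE medium at 48, 72 and 96 h, with 1 library of polyadenylated RNA per strain and time, 9 in all. The designation of the wild type, the promoter that drives AcmybA in AcmybAOE and the number of transformants behind each mutant are not stated in the labels.

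The 58 genes were chosen on measured values of all 9 libraries. Values were FPKM, which divides the fragments of a gene by its length and by the size of the library, and were taken as log2(FPKM + 1). A gene was included if its mean over the libraries was at least 10 FPKM, if the mean of each mutant lay within 0.5 of the wild-type mean on the log2 scale, and if the value at 96 h exceeded that at 48 h by at least 0.75 in each strain. Of the 7360 genes at that mean level, 322 met the condition on the rise and 4436 the condition on the strain means. The sizes of the rise and the closeness of the strain means are therefore descriptions of the choice and carry no test. The rule speaks of strain means only, and levels at single times could still differ.

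Myb proteins bind DNA through helix-turn-helix repeats, and in filamentous fungi some of them act in development. As a culture of this fungus ages, growth slows, nutrients run down, and hyphae can break up into arthrospores or form conidia. Cephalosporin C is a secondary metabolite, a class of compound that fungi typically make after the fastest growth has passed. The design crosses culture age with strain, so transcripts that differ with age can be set beside those that differ with AcmybA. The genes carry protein identifiers without names or products, so no role is given to any of them below. AcmybA itself was not matched to an identifier, and the strain labels were not checked against its level.

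The libraries had summed FPKM from 852915 to 1124540, median FPKM from 37.0 to 41.5 and between 302 and 503 genes listed at 0. Depth is not stated. At genes under 2 FPKM in every library, values stepped in multiples of what 1 read is worth, and the commonest ratio put wild type at 48 and 72 h at 0.932 and 0.951 of the depth of wild type at 96 h. For ∆AcmybA that ratio was 2.40, 0.829 and 0.893 at 48, 72 and 96 h, and for AcmybAOE it was 1.77, 2.40 and 2.22. In ∆AcmybA at 48, 72 and 96 h that ratio was found in 15, 16 and 12 genes, against 11, 10 and 10 for the next commonest. In AcmybAOE it was found in 11, 6 and 6 genes, against 10, 4 and 5. The mutant depths may thus be off by a whole-number factor, and those of AcmybAOE at 72 and 96 h rest on few genes. None of the 58 genes was listed at 0 in any library, and their lowest value was 1.56 FPKM.

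The 58 genes covered a wide range of levels. Their mean over the 9 libraries ran from 10.7 FPKM for KFH42956.1 to 6270 FPKM for KFH46303.1, with a median of 60.5 FPKM against 53.4 FPKM over all genes at a mean of 10 FPKM or more. In 39 of them the mean was under 100 FPKM, in 17 it was between 100 and 1000, and in 2 it was above 1000. The median member was at 26.6, 81.4 and 68.4 FPKM in the wild-type libraries of 48, 72 and 96 h. In ∆AcmybA it was at 28.7, 55.8 and 82.4 FPKM, and in AcmybAOE at 27.1, 68.3 and 95.0 FPKM. In mycelium taken whole, fewer cells of a kind and less RNA per cell cannot be told apart. At 48 h the strains thus had nearly the same median, and at 72 h the wild type had the highest and ∆AcmybA the lowest.

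Averaged over the strains, the log2 rise from 48 to 96 h ran from 0.80 to 3.13 with a median of 1.46. It was at least 2 in 13 genes, between 1 and 2 in 36 and under 1 in 9. The median ratio of FPKM at 96 h to that at 48 h was 2.59 in wild type, 2.40 in ∆AcmybA and 3.19 in AcmybAOE. AcmybAOE had the largest of the 3 rises in 30 genes, and wild type and ∆AcmybA in 14 each. The 264 genes that met the condition on the rise but not that on strain means, called other late risers below, had a median rise of 1.92. Among these 264, AcmybAOE had the largest rise in 116, wild type in 91 and ∆AcmybA in 57. Over all 7360 genes at a mean of 10 FPKM or more the counts were 2466, 2661 and 2233. The rule used the rises, so these counts are descriptions and carry no test.

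**Figure D1:**
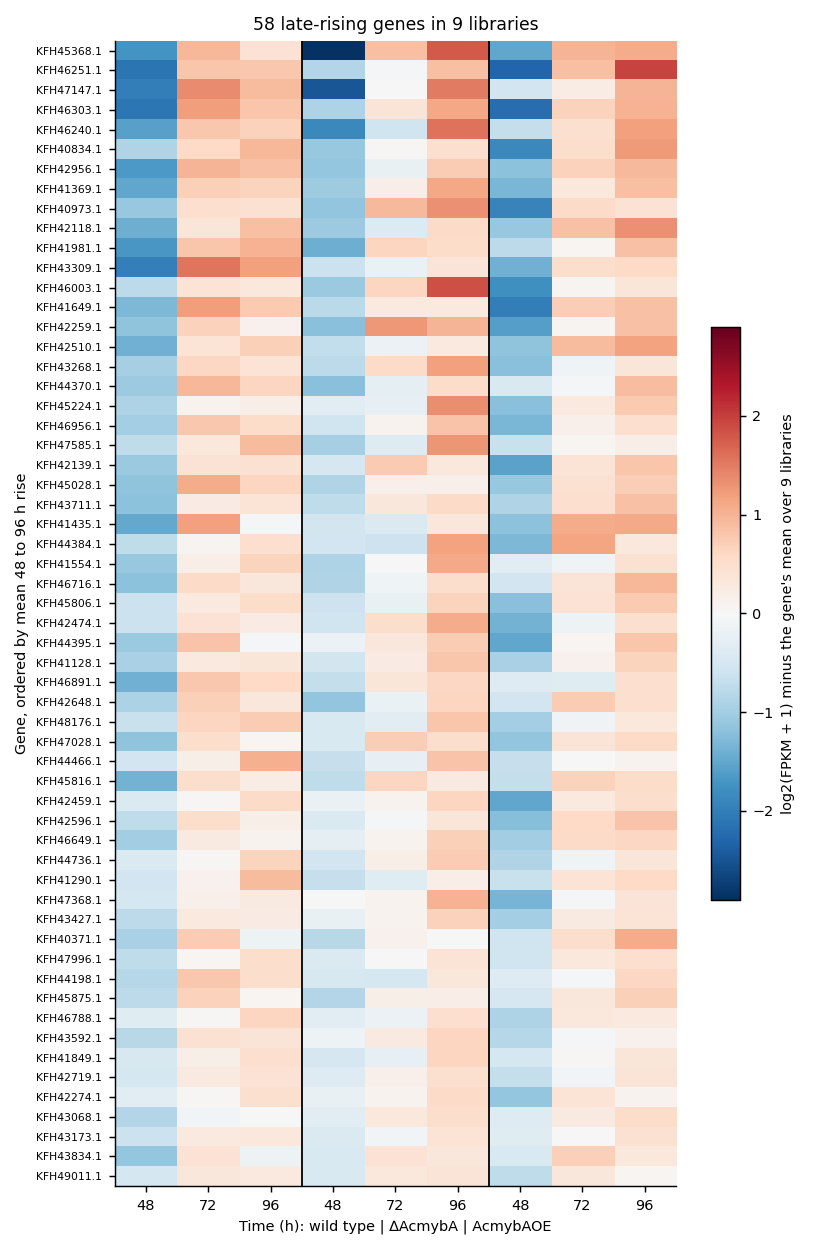
Heat map of the 58 genes (rows, ordered by mean rise) in the 9 libraries (columns, time in hours within each strain). Color gives log2(FPKM + 1) minus the gene's own mean, so that blue is below and red above it. The 48 h columns are blue in nearly all rows by the rule of choice, the 72 h column is red in most rows of wild type and pale in most rows of ∆AcmybA, and the mean rise falls from 3.13 in the top row to 0.80 in the bottom row.

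A pair of very abundant transcripts made up most of the summed FPKM of the group at 72 and 96 h. Triplets of values below are in the order 48, 72 and 96 h. KFH46303.1 was at 1095, 10841 and 8109 FPKM in the wild-type libraries of 48, 72 and 96 h, at 2522, 6034 and 10098 FPKM in ∆AcmybA, and at 1013, 7409 and 9308 FPKM in AcmybAOE. All 6 later values were above all 3 values at 48 h, and wild type was highest at 72 h while both mutants were highest at 96 h. KFH45368.1 was at 664, 4324 and 2943 FPKM in the wild type, at 301, 4017 and 7590 FPKM in ∆AcmybA, and at 774, 4361 and 4663 FPKM in AcmybAOE. Its strains were nearly level at 72 h, where the highest exceeded the lowest 1.09-fold, and lay apart at 48 and 96 h, by 2.57-fold and 2.58-fold. ∆AcmybA had both its lowest 48 h value and its highest 96 h value, a 25.2-fold ratio.

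Together the 58 genes took 0.416%, 2.09% and 1.82% of summed FPKM in the wild-type libraries of 48, 72 and 96 h. In ∆AcmybA they took 0.600%, 1.51% and 2.46%, and in AcmybAOE 0.369%, 1.89% and 2.47%. The 2 most abundant genes alone took 0.167%, 1.45% and 1.14% in wild type, 0.279%, 0.977% and 1.66% in ∆AcmybA, and 0.159%, 1.28% and 1.64% in AcmybAOE. The other 56 genes took 0.249%, 0.643% and 0.688% in wild type, so their wild-type share was higher at 96 h than at 72 h, unlike that of the 2 abundant genes. The wild-type total was smaller at 96 h, with a summed FPKM of 972960 against 1046510 at 72 h. A higher share there does not by itself mean more FPKM. The share of these 56 genes was 0.321%, 0.533% and 0.804% in ∆AcmybA and 0.210%, 0.607% and 0.829% in AcmybAOE.

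**Figure D2:**
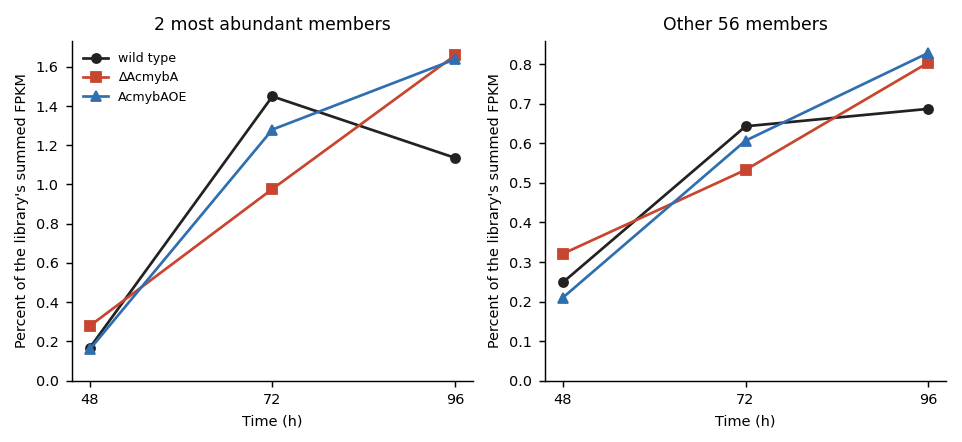
Share of each library's summed FPKM (percent, vertical axes from 0 and of different height) against time in hours for the 2 most abundant genes (left) and the other 56 (right), with 1 library per point. Wild type peaks at 72 h with 1.45% on the left and reaches 0.688% at 96 h on the right, and both mutants are highest at 96 h on either side.

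Of the 10 genes with the largest mean rise, the others ranged in mean level from 10.7 to 210 FPKM. KFH46251.1 was at 11.1, 89.8 and 88.8 FPKM in the wild-type libraries of 48, 72 and 96 h, at 28.0, 50.4 and 95.2 FPKM in ∆AcmybA, and at 9.73, 95.4 and 204 FPKM in AcmybAOE. Its ∆AcmybA value was the highest of the 3 at 48 h and the lowest at 72 h. KFH47147.1 was at 10.7, 120 and 88.1 FPKM in the wild type, at 7.35, 46.1 and 133 FPKM in ∆AcmybA, and at 31.1, 53.6 and 92.4 FPKM in AcmybAOE. Here the strains were most unlike at 48 h, where AcmybAOE exceeded ∆AcmybA 4.23-fold, the widest gap at any time among the 58 genes.

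KFH46240.1 was at 26.5, 141 and 131 FPKM in the wild type, at 21.7, 54.3 and 246 FPKM in ∆AcmybA, and at 50.4, 113 and 188 FPKM in AcmybAOE. ∆AcmybA had the lowest values at 48 and 72 h and the highest at 96 h. KFH40834.1 was at 26.1, 73.1 and 96.0 FPKM in the wild type, at 21.9, 49.5 and 68.5 FPKM in ∆AcmybA, and at 12.6, 69.1 and 116 FPKM in AcmybAOE. It was higher at each later time in every strain. KFH42118.1 also stepped up at each time, with 12.1, 43.3 and 62.6 FPKM in the wild type, 16.0, 25.6 and 50.7 FPKM in ∆AcmybA, and 15.4, 62.2 and 86.4 FPKM in AcmybAOE.

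The least abundant of the 58, KFH42956.1, was at 2.02, 17.8 and 16.2 FPKM in the wild type, at 3.38, 7.28 and 14.9 FPKM in ∆AcmybA, and at 3.17, 14.2 and 17.4 FPKM in AcmybAOE. Its strains were within 1.16-fold of each other at 96 h and 2.44-fold apart at 72 h. KFH41369.1 was at 3.0, 17.3 and 16.8 FPKM in the wild type, at 4.54, 12.01 and 23.6 FPKM in ∆AcmybA, and at 3.51, 12.9 and 19.6 FPKM in AcmybAOE. Its log2 rise was 2.15 in wild type, 2.15 in ∆AcmybA and 2.19 in AcmybAOE, and the mutants' means were 0.15 or less from that of wild type. KFH40973.1 was at 78.4, 238 and 228 FPKM in the wild type, at 75.2, 325 and 425 FPKM in ∆AcmybA, and at 43.5, 249 and 226 FPKM in AcmybAOE. Most of its increase was in place by 72 h in every strain.

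**Figure D3:**
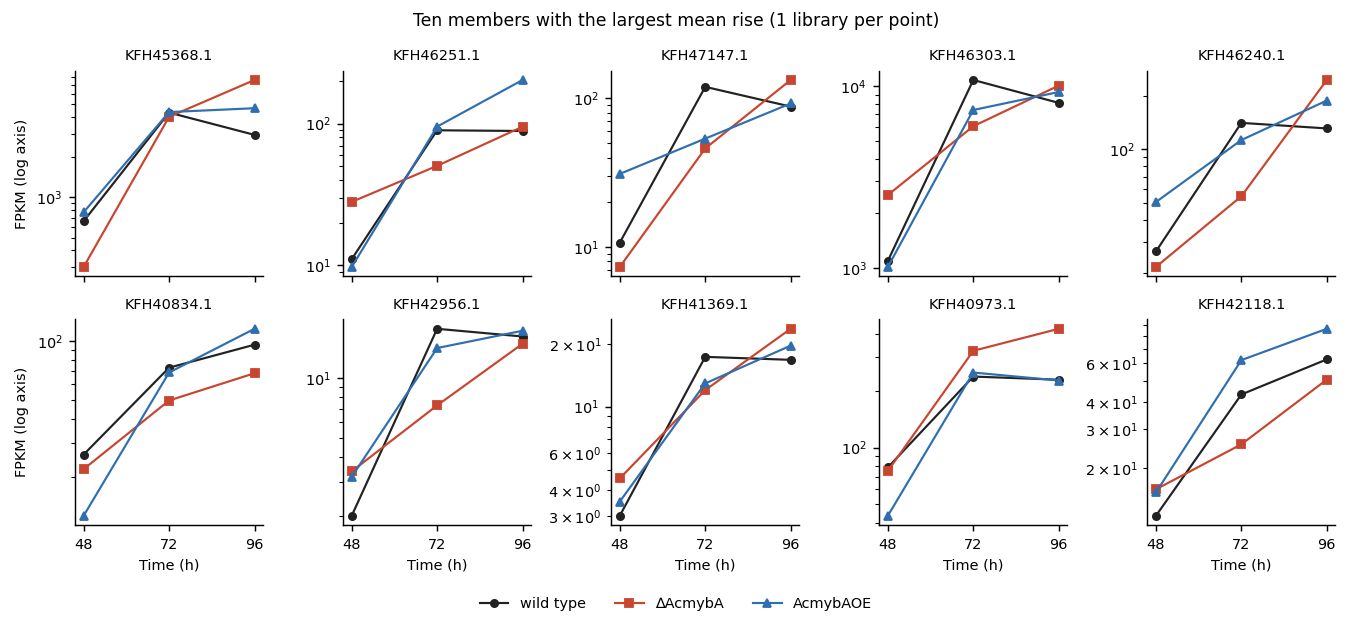
FPKM (log axis, with its own range in each panel) against time in hours for the 10 genes with the largest mean rise, with 1 library per point and a line per strain. In 8 of the 10 panels the wild-type line is flat or lower after 72 h, while the ∆AcmybA line climbs from 72 to 96 h in every panel.

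Besides KFH46303.1 and KFH45368.1, the most abundant members had smaller rises when averaged over the strains. KFH43268.1 was at 263, 788 and 677 FPKM in the wild type, at 304, 754 and 1181 FPKM in ∆AcmybA, and at 222, 475 and 656 FPKM in AcmybAOE. KFH47368.1 was at 364, 576 and 627 FPKM in the wild type, at 526, 560 and 1043 FPKM in ∆AcmybA, and at 203, 510 and 673 FPKM in AcmybAOE. At 72 h the strains of KFH47368.1 were within 1.13-fold, and at 48 h they were 2.60-fold apart with AcmybAOE lowest.

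KFH42459.1 was at 228, 314 and 451 FPKM in the wild type, at 267, 328 and 474 FPKM in ∆AcmybA, and at 107, 375 and 435 FPKM in AcmybAOE. It too was set apart at 48 h by a low AcmybAOE value, after which the strains were within 1.19-fold at 72 h and 1.09-fold at 96 h. KFH43309.1 was at 46.4, 549 and 425 FPKM in the wild type, at 119, 161 and 239 FPKM in ∆AcmybA, and at 69.8, 263 and 277 FPKM in AcmybAOE. Its mean levels met the rule, yet its courses were unlike: the wild type was lowest at 48 h and highest at 72 and 96 h, with a 9.16-fold ratio of 96 to 48 h against 2.01-fold in ∆AcmybA.

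Similar strain means did not require similar levels at each time. The range over the 3 strains on the log2 scale had a median of 0.69 at 48 h, 0.58 at 72 h and 0.54 at 96 h over the 58 genes. Over all genes at a mean of 10 FPKM or more the medians were 0.66, 0.57 and 0.63. In 34 of the 58 genes, or 58.6%, the strains were within 1 on the log2 scale at all 3 times, against 55.3% of all genes at that mean level. Time by time, the closeness of the strains was thus near that of expressed genes in general, which were not chosen for close strain means. Another 107 genes met the condition on strain means but fell by at least 0.75 from 48 to 96 h in every strain. Their strains were closer, with median ranges of 0.49, 0.51 and 0.49, and 75.7% were within 1 at all 3 times. In 5 genes the range exceeded 1.5 at some time, namely KFH47147.1, KFH43309.1, KFH44384.1, KFH41435.1 and KFH46003.1, singled out after their values were seen.

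The 4 genes whose strains stayed closest had modest rises. KFH49011.1 was at 18.5, 33.7 and 32.4 FPKM in the wild type, at 19.4, 33.3 and 35.0 FPKM in ∆AcmybA, and at 15.5, 33.7 and 27.9 FPKM in AcmybAOE. Its 3 values at 72 h agreed within 1.01-fold, and its mean rise of 0.80 was the smallest of the 58. KFH47996.1 was at 122, 212 and 292 FPKM in the wild type, at 153, 205 and 268 FPKM in ∆AcmybA, and at 136, 254 and 288 FPKM in AcmybAOE.

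KFH42719.1 was at 103, 177 and 195 FPKM in the wild type, at 113, 161 and 202 FPKM in ∆AcmybA, and at 90.1, 138 and 189 FPKM in AcmybAOE. KFH43173.1 was at 70.1, 133 and 134 FPKM in the wild type, at 81.2, 103 and 143 FPKM in ∆AcmybA, and at 84.1, 108 and 148 FPKM in AcmybAOE. In these 2 genes, as in KFH47996.1, each strain was higher at every later time. The widest range over strains among the 4 genes at any time was 0.36 on the log2 scale.

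The level at 72 h relative to 48 and 96 h was not part of the condition on the rise. It was measured as the departure of log2(FPKM + 1) at 72 h from the midpoint of 48 and 96 h, where a value above 0 means that more than an even share of the rise had come by 72 h. Fitted over the 3 strains with limma, this contrast is orthogonal to the 96 h minus 48 h difference and to the strain means. It was estimated above 0 in 55 of the 58 genes, with a median of 0.47, against 46.1% of genes and a median of -0.02 over all genes at a mean of 10 FPKM or more. The estimate was below 0 in KFH44466.1, KFH47585.1 and KFH41849.1, at -0.03, -0.01 and -0.01, each smaller in size than its standard error of 0.22, 0.26 and 0.16.

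No member passed the test at an adjusted p under 0.05 (limma with Benjamini-Hochberg adjustment over 8482 genes, two-sided), where 0% of tested genes passed above the midpoint and 0.0118% below it. At an unadjusted p under 0.05, 20 of the 58 lay above the midpoint and 0 below it, against 4.11% and 2.09% of all tested genes. The 20 became 8 without wild type at 72 h and 13 without AcmybAOE at 72 h. Of the 264 other late risers, 132 lay above at that level, and their median departure was 0.65. The 107 genes that were lower at 96 h than at 48 h by at least 0.75 in every strain, under the same condition on strain means, had 27 below and a median of -0.31. A 72 h level nearer to that of 96 h was thus also found in the other late risers and, mirrored, in the falling genes.

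The smallest p among the members belonged to KFH45816.1, chosen after its values were seen. It was at 16.0, 61.5 and 50.3 FPKM in the wild type, at 25.4, 66.7 and 51.6 FPKM in ∆AcmybA, and at 26.1, 69.1 and 62.6 FPKM in AcmybAOE. Its highest value was at 72 h in all 3 strains, and its departure was 0.90 (SE 0.16, limma adjusted p = 0.594). KFH43834.1 was the other gene with this order everywhere, at 38.7, 115 and 77.5 FPKM in the wild type, 63.4, 115 and 107 FPKM in ∆AcmybA, and 62.5, 140 and 106 FPKM in AcmybAOE. Its departure was 0.77 (SE 0.16, limma adjusted p = 0.594).

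Strain by strain, the median departure at 72 h was 0.73 in wild type, 0.52 in AcmybAOE and 0.05 in ∆AcmybA. On the same scale the medians over all genes at a mean of 10 FPKM or more were -0.04 in ∆AcmybA and nearer to 0 in the other strains. The share of the log2 rise reached by 72 h had a median of 104% in wild type, with quartiles of 84.3% and 119%. In AcmybAOE the median was 81.0%, with quartiles of 67.4% and 89.7%. In ∆AcmybA it was 54.2%, with quartiles of 37.8% and 78.8%. The typical member had thus reached its 96 h level by 72 h in wild type and was about midway there in ∆AcmybA.

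The 72 h value exceeded the 96 h value in 33 genes in wild type, 7 in ∆AcmybA and 8 in AcmybAOE. These are 56.9%, 12.1% and 13.8% of the 58, against 50.9%, 50.1% and 56.8% of all genes at a mean of 10 FPKM or more, so the wild-type share was near that of genes in general. Among the other late risers the shares were 49.2%, 17.0% and 29.9%. With every library scaled to the same total the counts were 25, 10 and 7. It lay below the 48 h value only in ∆AcmybA, in KFH44384.1 and KFH44198.1. KFH44384.1 was at 5.58, 10.6 and 14.4 FPKM in the wild type, at 6.50, 6.28 and 23.6 FPKM in ∆AcmybA, and at 3.45, 23.2 and 12.6 FPKM in AcmybAOE. KFH44198.1 was at 20.4, 64.2 and 53.0 FPKM in the wild type, at 26.3, 25.6 and 46.5 FPKM in ∆AcmybA, and at 28.1, 35.9 and 56.7 FPKM in AcmybAOE. In both, ∆AcmybA was flat to 72 h and higher at 96 h.

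The departure was larger in wild type than in ∆AcmybA in 54 of the 58 genes, or 93.1%. The exceptions were KFH40973.1, KFH42139.1, KFH42259.1 and KFH44736.1. The same order was found in 83.0% of the 264 other late risers and in 53.7% of all genes at a mean of 10 FPKM or more. Among those 264 the median departures were 0.95 in wild type, 0.76 in AcmybAOE and 0.22 in ∆AcmybA, in the same order as in the 58. In the 107 falling genes the order was mirrored, with medians of -0.48 in wild type, -0.32 in AcmybAOE and -0.13 in ∆AcmybA. There the departure was larger in wild type than in ∆AcmybA in 25.2%. Each strain has 1 library at 72 h, so this difference between strains was not tested, and the 72 h library of ∆AcmybA cannot be told apart from the strain at that time. That library had a depth ratio of 0.829, which may be off by a whole-number factor, and 477 genes listed at 0. The ratio was the lowest of the 9 libraries, next to 0.893 in ∆AcmybA at 96 h. Wild type at 48 h had more genes at 0, with 503. The part of depth in the result was not tested.

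The condition on strain means also ties the times together, because a strain well above the others at 48 and 96 h needs a lower 72 h value to keep its mean near theirs. Among the 58, ∆AcmybA was the highest strain in 35 genes at 48 h and 30 at 96 h but in 8 at 72 h, where it was the lowest in 37. As shares, ∆AcmybA was the highest in 60.3%, 13.8% and 51.7% at 48, 72 and 96 h, against 60.6%, 42.8% and 55.7% of the 264 other late risers, which failed that condition, and 34.5%, 35.3% and 33.4% of all genes at a mean of 10 FPKM or more. It was the lowest at 72 h in 63.8% of the 58, 32.2% of the other late risers and 36.0% of all those genes. Wild type was the highest in 8 genes at 48 h, 31 at 72 h and 6 at 96 h, or 13.8%, 53.4% and 10.3%. The corresponding wild-type shares were 15.9%, 33.3% and 15.2% of the other late risers and 22.8%, 26.0% and 29.5% of all those genes. The low rank of ∆AcmybA at 72 h cannot be told apart from the choice of genes.

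**Figure D4:**
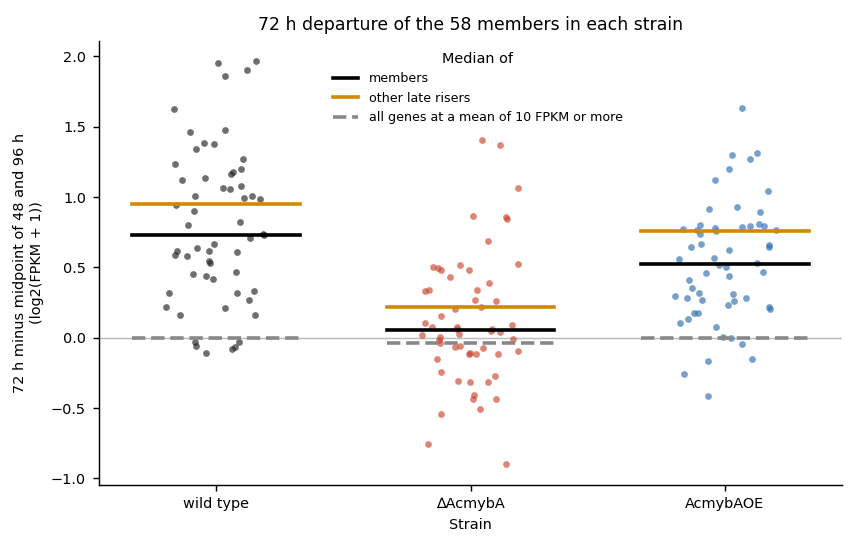
Departure of the 72 h value from the midpoint of 48 and 96 h (log2(FPKM + 1), vertical axis) for each of the 58 genes (points, spread sideways at random) in each strain. Lines are medians of the 58 genes (black), of the 264 other late risers (orange) and of all genes at a mean of 10 FPKM or more (grey, dashed). The black line is at 0.73, 0.05 and 0.52 from left to right, below the orange line each time.

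Genes with a large departure in 1 strain did not closely follow the same order in another. Across the 58 genes the departures correlated at r = 0.41 between wild type and ∆AcmybA, 0.18 between wild type and AcmybAOE and 0.07 between ∆AcmybA and AcmybAOE. These strains share no library, but genes are not independent replicates and the values are descriptions. Across all genes at a mean of 10 FPKM or more the same correlations were 0.12, 0.33 and -0.04.

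At the edges of the rule, the members with the smallest rise in any strain were KFH41554.1, KFH43834.1 and KFH42596.1, at 0.7502, 0.7515 and 0.7586. Just outside were KFH42312.1, KFH41092.1 and KFH45634.1, at 0.743, 0.730 and 0.729. The members with the largest difference between a mutant and wild type were KFH48176.1, KFH46003.1 and KFH44370.1, at 0.495, 0.493 and 0.492 in size. Just outside were KFH41703.1, KFH45824.1 and KFH44185.1, at 0.501, 0.503 and 0.520. A stricter choice, with strain differences under 0.25 and rises of at least 1, left 5 genes, KFH41369.1, KFH41981.1, KFH44384.1, KFH45806.1 and KFH46303.1. The stricter limit is still on strain means only. The strains of KFH44384.1 were 3.69-fold apart at 72 h, and those of KFH46303.1 were 2.49-fold apart at 48 h.

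The protein identifiers of the 58 genes were scattered. No pair carried successive numbers, and the nearest pair, KFH45806.1 and KFH45816.1, was 10 apart. Identifiers were not placed on the genome here, so this says nothing firm about gene neighbourhood.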

How the data were processed

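The authors deposited a table with 1 value per gene and library. Its header names no unit, and the deposited values are treated as FPKM, since they are not whole and their sums differ between libraries. CASAVA (version not given) and HISAT2 2.0.5 appear in the submitters' processing notes; build, annotation and counting tool: not given in the sources used here. All 9 value columns matched a library by title.

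Genes that reached 1 FPKM in 3 or more libraries (8482, all 58 members included) were fitted on log2(FPKM + 1), which understates changes of low genes, with limma 3.58.1 in R 4.3.3, strain and time as factors and an intensity trend. The contrast was 72 h minus the mean of 48 and 96 h. Residual degrees of freedom were 4, plus 3.26 from the prior. The residual is departure from additive strain and time effects, not spread between cultures, and p-values measure that alone.

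The members and lists were chosen with earlier results of these data known. Genes named are the 10 with the largest mean rise, the 6 most abundant, the 4 with the smallest spread between strains and the 3 nearest each side of a limit; the rule's further classes (genes past the test, runs of successive identifiers, product words) gave none. Others are named where a count is 5 or fewer. Alternatives were other pseudocounts, scalings, filters and limits, and the omission of each library.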

Additional observations from a re-analysis of the deposited data

Results flagged for a closer look

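Between 72 and 96 h the median step was smaller in wild type than in either mutant. The median log2 step over the 58 genes was -0.05 in wild type, 0.57 in ∆AcmybA and 0.33 in AcmybAOE, which puts ∆AcmybA 0.62 and AcmybAOE 0.39 above wild type. The other late risers had the same order, with medians of 0.009 in wild type, 0.64 in ∆AcmybA and 0.31 in AcmybAOE. Over all genes at a mean of 10 FPKM or more the medians were -0.009, -0.001 and -0.05. In 28 of the 58 genes, or 48.3%, the 96 h value was below the 72 h value in wild type and above it in ∆AcmybA, and in 2 genes, KFH41981.1 and KFH42139.1, the reverse held. The first order was seen in 40.5% of the other late risers and in 22.6% of all genes at a mean of 10 FPKM or more. With equal totals the wild-type median turned to 0.0498, so its sign is not settled, while those of the mutants were 0.51 and 0.44. With 1 library per strain and time the difference was not tested.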

How the results depend on the processing

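The number of genes meeting the rule was 58 as reported, and between 50 and 86 under other pseudocounts, scalings or no minimum level. Median-of-ratios rescaling gave 86 genes, 56 of them among the 58; quantile normalisation gave 72, with 49 shared, equal totals 67, with 42 shared, and a pseudocount of 10 gave 50, with 33 shared. Under the stricter limits it was 5. No member passed the 72 h test under any of the 16 alternatives. At an unadjusted p under 0.05 the 20 members became 8 without wild type at 72 h, 13 without AcmybAOE at 72 h and 28 without ∆AcmybA at 48 h, and were between 14 and 26 without any other library. The median departure of 0.47 was 0.33 to 0.61 when a library was left out, lowest without wild type and highest without ∆AcmybA at 72 h, and 0.30 with a pseudocount of 10. Chosen after seeing the data, the medians by strain were recomputed under 2 pseudocounts and 3 scalings: 0.60 to 0.77 in wild type, 0.34 to 0.60 in AcmybAOE and 0.01 to 0.13 in ∆AcmybA. The order of the 3 strains stayed in each. With equal totals the median wild-type step from 72 to 96 h turned from -0.054 to 0.0498, and the other settings kept its sign. That scaling multiplies all genes of a library by 1 number. Wild-type summed FPKM was 1046510 at 72 h and 972960 at 96 h. Over all genes at a mean of 10 FPKM or more, the same median went from -0.009 to 0.092. Strain is a factor in the fit, so the 72 h contrast is already taken within strains. Low genes are measured least precisely, and no strain and time has a repeated library.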
